A study of Daphnia magna with 45 samples.

Results

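Females of the water flea Daphnia magna (strain Xinb3), a small crustacean, were kept for 24 h in water with propranolol at 4 mg/L or in control water, and the messenger RNA of their whole bodies was sequenced. The comparison holds 6 of the 45 libraries of the series, chosen by their labelled exposure and hour: 3 of propranolol 4 mg/L at 24 h and 3 of control at 24 h. Animals were 5 days old, 20 per solution of 35 mL, and each library came from 500 ng of total RNA of whole bodies. Used for context were propranolol 1 mg/L at 24 h (3 libraries), the other groups sampled at 1, 3 and 6 h, and 1 control library at 0 h. The earlier groups were control and propranolol 1 mg/L at 1, 3 and 6 h, propranolol 4 mg/L at 1 h and at 6 h (2 libraries), and isoprenaline 100 mg/L and a mixture of propranolol 1 mg/L with isoprenaline 100 mg/L at 1 and 6 h, with 3 libraries each unless stated. Whole animals were measured, so fewer cells of a type and less RNA per cell cannot be told apart.

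Propranolol blocks beta-adrenergic receptors, the G protein-coupled receptors through which adrenaline and noradrenaline speed the vertebrate heart, and isoprenaline activates them. Arthropods use the amines octopamine and tyramine, which act on related receptors, in the roles that adrenaline and noradrenaline have in vertebrates. The transparent body of Daphnia lets the beating heart be seen, which is why the animal has long been used to test heart drugs. The series asked how these compounds change gene expression beside heart rate.

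Levels are given in CPM, a transcript ID's reads scaled to a library total of 1000000, for 19159 IDs. The libraries of the comparison held 16.3 to 43.7 M reads. None of the IDs could be matched to a gene name (0 of 19159), so IDs are described by level and direction, and neither gene lists nor markers of a cell type could be used. None of the 6 pairs of libraries within a group agreed within sampling noise, the chi-square divided by its degrees of freedom being 77.4 to 640.1.

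Replicate 1 of propranolol 4 mg/L stood apart from every other library at 24 h. Each library was placed on a line through the mean of propranolol 1 mg/L at 1 h, set to 0, and its mean at 24 h, set to 1. This hour score was -0.33 in replicate 1 of propranolol 4 mg/L, 1.21 in replicate 2 and 1.05 in replicate 3, against 0.92, 1.12 and 0.82 in the control libraries. The libraries of earlier hours spanned -0.325 to 0.593, and replicate 1, at -0.327, lay just below that span. On a line through the control groups of the same hours, each library left out of its own mean, the scores were 0.60, 0.35 and 0.74 in propranolol 4 mg/L and 1.12, 0.39 and 1.16 in control, so that replicate 2 of the control lay lower than replicate 1 of propranolol 4 mg/L. The separation of replicate 1 thus held on the first line and not on the second.

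**Figure D1:**
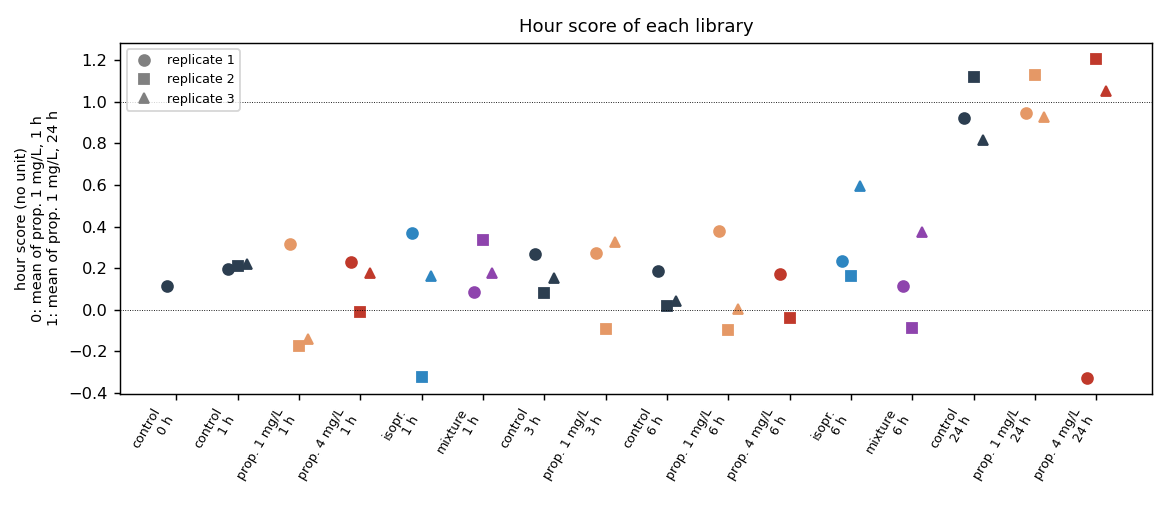
Hour score of each library (vertical axis, no unit; 0 is the mean of propranolol 1 mg/L at 1 h and 1 its mean at 24 h), by group and hour (horizontal axis); each point is a library and its shape is the replicate number. Replicate 1 of propranolol 4 mg/L at 24 h lies at -0.33, and the other 8 libraries at 24 h lie between 0.82 and 1.21.

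Replicate 1 was also less like its own group than like an early one. Its Pearson correlation of log2(CPM + 1) over all IDs, which are not independent replicates, was 0.762 with replicate 2 and 0.843 with replicate 3, while those 2 correlated at 0.945. Between control libraries it was 0.872 to 0.951. Against group means, replicate 1 came closest to propranolol 1 mg/L at 6 h (0.948), and its correlation with control at 24 h was 0.883. Its 10 most abundant IDs took 8.65% of its reads, against 13.2% and 13.7% in replicates 2 and 3 and 15.6% to 21.4% in the control libraries. The part of the hour in this was not tested, and each result below is given with and without replicate 1.

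With all 6 libraries, 308 IDs differed between propranolol 4 mg/L and control at 24 h, which is 1.61% of those tested. Of these, 94 were higher (0.491%) and 214 lower (1.12%) under propranolol, with median log2 changes of 1.21 and -1.40 on the log2(CPM + 1) scale (limma, Benjamini-Hochberg adjusted p under 0.05, 29 residual degrees of freedom from a fit shared by 16 groups). The higher IDs spanned log2 changes of 0.37 to 3.67 and the lower ones -6.30 to -0.40. At least a doubling was seen for 57 of the higher IDs and at least a halving for 157 of the lower ones. Scaling each library by its median log ratio gave 154 higher and 225 lower, and edgeR's quasi-likelihood test on the recovered reads called 578 (3.02%), 334 higher and 244 lower.

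Without replicate 1, 26 IDs were called (0.136%): 9 were higher (0.047%) and 17 lower (0.0887%). Of these 26, 25 were among the 308, with the same sign, 8 higher and 17 lower. These 25 are called the retained IDs here; replicate 1 had a part in choosing them, so their changes are given as a description. The other 283 calls kept their sign without replicate 1, and each had an unadjusted p under 0.05 in limma. Over all 19159 IDs, 2269 were under 0.05 in that fit. None of the 283 passed the adjusted threshold, and 246 of them had a smaller change. That fit keeps the control libraries and the other exposed libraries by which these IDs were chosen. Their equal sign and low unadjusted p thus describe them and test nothing. Replicate 1 was the library farthest from the control mean in 220 of the 308 calls, in 76 of the 94 higher IDs and 144 of the 214 lower ones. Median changes of the called IDs were 0.88 for the higher and -1.26 for the lower without replicate 1.

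The exposed libraries differed in how far they lay from control. Over the 94 higher IDs the median log2 difference from the control mean was 1.79 in replicate 1, 0.84 in replicate 2 and 0.81 in replicate 3. For the 214 lower IDs it was -1.63, -1.37 and -1.06. The higher IDs took 1.62%, 0.967% and 1.20% of the reads in propranolol 4 mg/L, against 0.714%, 0.674% and 0.687% in control. Lower IDs took 0.591%, 0.751% and 1.38% in propranolol 4 mg/L, against 3.83%, 2.52% and 3.62% in control. Both sets were chosen by this comparison, so the shares describe its size and test nothing.

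Other libraries also set the count. It was 40 without replicate 1 of the control and 605 without replicate 3 of propranolol 4 mg/L. With only the 6 libraries in the fit, limma called 6 IDs (0.0313%), all lower, and 1 without replicate 1. Without replicate 1, edgeR called 23 (0.12%), 12 higher and 11 lower.

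**Figure D2:**
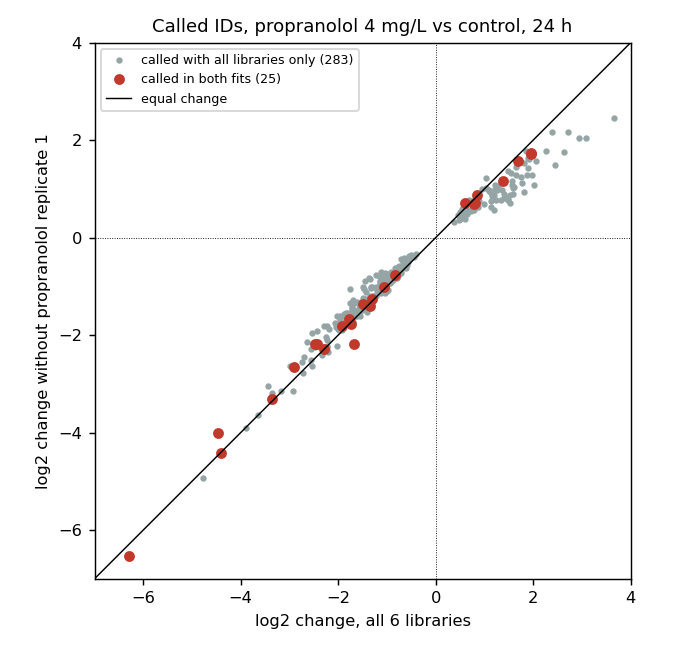
Log2 change of propranolol 4 mg/L against control at 24 h for the 308 called IDs, with all 6 libraries (horizontal axis) and without replicate 1 of propranolol 4 mg/L (vertical axis); the line marks equal changes. All 308 points lie in the quadrants of equal sign, and the higher IDs fall below the line more than the 25 IDs called in both fits do. Both fits share every library but replicate 1, so the equal sign tests nothing.

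Among the IDs higher under propranolol than in control at 24 h, Dapma7bEVm015503t1 and Dapma7bEVm023888t1 led the ranking without replicate 1. Dapma7bEVm015503t1 was at 84.2, 57.1 and 47.9 CPM in propranolol 4 mg/L (replicates 1 to 3), against 12.8, 19.3 and 13.6 CPM in control. The groups did not overlap, which was a condition for naming an ID, and replicate 1 was the highest exposed library. Its log2 difference from control was 1.97 (SE 0.294, limma adjusted p 0.000659), and 1.74 without replicate 1 (SE 0.321, limma adjusted p 0.0213). Pooled reads put its share 3.96-fold higher under propranolol (95% interval 3.69 to 4.27, counting error only) and 3.51-fold higher without replicate 1.

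Dapma7bEVm023888t1 was at 69.9, 40.0 and 44.2 CPM in propranolol 4 mg/L, against 10.1, 15.3 and 11.2 CPM in control. Again every exposed library lay above every control library, as the condition for naming required. Its log2 change was 1.96 (SE 0.225, limma adjusted p 1.33e-05), and 1.72 without replicate 1 (SE 0.236, limma adjusted p 0.000681). edgeR gave adjusted p of 3.89e-05 with and 0.00101 without replicate 1 for this ID, and 0.00138 and 0.026 for Dapma7bEVm015503t1. With only the 6 libraries in the limma fit both missed the threshold, each at an adjusted p of 0.189.

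In control animals both IDs had lower means at 24 h than at 1, 3 or 6 h, and were low in the 0 h library too. Dapma7bEVm015503t1 averaged 110.6, 128.8 and 63.1 CPM in propranolol 4 mg/L at 1, 6 and 24 h. In control it averaged 95.4, 88.9, 67.8 and 15.2 CPM at 1, 3, 6 and 24 h, with 17.4 CPM in the 0 h library. The level at 24 h under propranolol thus lay between the control levels at 24 h and at 6 h. Dapma7bEVm023888t1 averaged 87.4, 103.1 and 51.3 CPM in propranolol 4 mg/L at 1, 6 and 24 h, and 62.9, 57.3, 57.5 and 12.2 CPM in control at 1, 3, 6 and 24 h, with 22.4 CPM in the 0 h library. Of the 8 retained higher IDs, 3 averaged between the control means of 24 and 6 h, and all 8 had a higher control mean at 1 h than at 24 h. Of the 17 retained lower IDs, 0 had a higher control mean at 1 h than at 24 h. The control libraries of 24 h had a part in choosing both sets, so these counts describe them and test nothing.

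The 2 IDs named among those that fell, which led the ranking of retained IDs without replicate 1, lay under 1 CPM in every library of propranolol 4 mg/L at 24 h. Dapma7bEVm016578t1 was at 0.945, 0.229 and 0.170 CPM in propranolol 4 mg/L, against 101.7, 84.2 and 154.2 CPM in control. Here replicate 1 was the exposed library nearest to control, and the groups lay far apart. The log2 change was -6.30 (SE 0.999, limma adjusted p 0.0015), and -6.53 without replicate 1 (SE 1.13, limma adjusted p 0.0106). Summed over libraries it had 33 reads under propranolol and 6361 in control, which put its share of reads 302-fold lower (95% interval 215 to 439), and 548-fold lower without replicate 1. It also passed with only the 6 libraries in the limma fit, at an adjusted p of 0.0186, and it was the single call left there without replicate 1. In edgeR without replicate 1 its adjusted p was 0.0222.

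Dapma7bEVm027021t1 was at 0.0995, 0.0915 and 0.0426 CPM in propranolol 4 mg/L, against 19.8, 17.2 and 30.7 CPM in control. All 3 exposed libraries together held 7 reads of it and the control libraries 1267. Its share was 283-fold lower (95% interval 137 to 706), and 305-fold lower without replicate 1. The log2 changes were -4.41 (SE 0.814, limma adjusted p 0.00534) and -4.42 without replicate 1 (SE 0.923, limma adjusted p 0.0431), and the pseudocount of 1 CPM makes them understate the ratio.

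**Figure D3:**
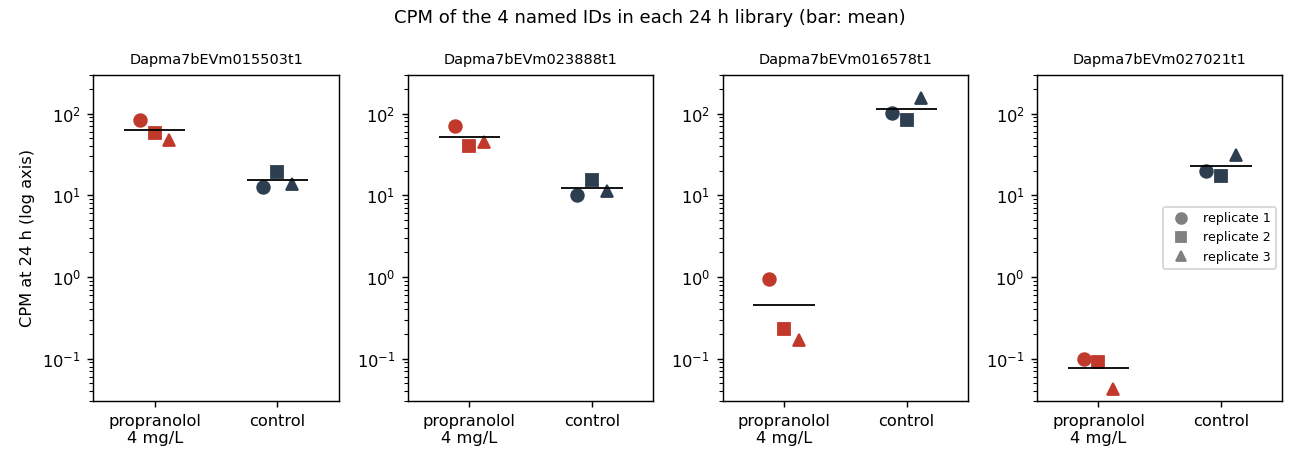
CPM (log axis) of the 2 named IDs higher and the 2 lower than control, in each library of propranolol 4 mg/L (left, red) and control (right, dark) at 24 h. Shapes are replicate numbers and bars are means. In each panel the groups do not overlap, which was a condition for naming an ID, and Dapma7bEVm016578t1 lies under 1 CPM in all 3 exposed libraries.

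The falls of these 2 IDs were differences from the control of that hour. In the control library at 0 h, Dapma7bEVm016578t1 was at 0.1 CPM and Dapma7bEVm027021t1 at 0.6 CPM. Means of Dapma7bEVm016578t1 were 0.135, 0.414 and 0.448 CPM in propranolol 4 mg/L at 1, 6 and 24 h, and 22.7, 46.2, 293 and 113.4 CPM in control at 1, 3, 6 and 24 h. Dapma7bEVm027021t1 averaged 0.172, 0.157 and 0.0779 CPM in propranolol 4 mg/L at 1, 6 and 24 h, and 5.12, 10.5, 55.2 and 22.6 CPM in control at 1, 3, 6 and 24 h. Neither ID passed against control at 1 h (limma adjusted p 0.972 and 1), where the control libraries themselves ran between 4.17 and 55 CPM for Dapma7bEVm016578t1.

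All 25 retained IDs had exposed and control libraries that did not overlap, as did 302 of the 308 calls. Over all IDs, groups did not overlap for 788 higher (4.11%) and 2176 lower (11.4%). The 8 retained higher IDs had log2 changes of 0.59 to 1.97 with all libraries and a median of 1.12, or 1.02 without replicate 1. Their control means ran between 5.06 and 302.7 CPM. The 17 retained lower IDs had changes of -6.30 to -0.83 and a median of -1.91, or -2.18 without replicate 1, and control means between 1.31 and 295.7 CPM. Over all IDs the median change was -0.01, and -0.04 without replicate 1.

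Library by library, the 8 retained higher IDs had a median log2 difference from control of 1.43 in replicate 1, 0.94 in replicate 2 and 0.99 in replicate 3 of propranolol 4 mg/L. For the 17 lower ones it was -2.10, -2.35 and -1.77, so that replicate 2 was the farthest. edgeR called 22 of the 25 with all libraries and 14 without replicate 1. With a second library left out beside replicate 1, limma called 4, 16 and 6 of the 25 without replicates 1, 2 and 3 of the control, 2 without replicate 2 and 4 without replicate 3 of propranolol 4 mg/L, and the sign of all 25 was the same in each fit.

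The remaining ID called without replicate 1 was Dapma7bEVm001846t1, named after its values were seen. It was at 272.6, 465.7 and 511.9 CPM in propranolol 4 mg/L, against 232.1, 307.8 and 274.7 CPM in control. Replicate 1 lay inside the control range, and the other exposed libraries above it. The log2 change was 0.57 (SE 0.185, limma adjusted p 0.104), and 0.85 without replicate 1 (SE 0.177, limma adjusted p 0.0431).

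Called and retained IDs were counted by abundance. Under a mean of 5 CPM over all 45 libraries, 4 of 5759 IDs were higher and 86 lower, and the retained set held 0 and 6 of them. Between 5 and 50 CPM, 47 of 9893 were higher and 94 lower, of which 3 and 7 were retained. Between 50 and 500 CPM, 37 of 3256 were higher and 30 lower, of which 5 and 4 were retained. Of the 251 IDs at 500 CPM and over, 6 were higher and 4 lower, and none of these 10 was retained.

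To see how far the calls followed the hour, IDs were taken that differed between 24 and 1 h in propranolol 1 mg/L, groups that share no library with propranolol 4 mg/L or control at 24 h. Of the 385 IDs that fell over that time (2.01% of all), 44 were higher and 2 lower in propranolol 4 mg/L at 24 h. Those 44 were 11.4% of the 385 and 46.8% of the 94 higher calls, where 0.491% of all IDs were higher. The median log2 difference from control over the 385 was 1.51 in replicate 1, 0.16 in replicate 2 and 0.20 in replicate 3. Without replicate 1, 3 of them were called, all higher, beside 0.047% of all IDs. Those 3 were 0.779% of the 385 and 33.3% of the 9 higher calls without replicate 1. The median change was then 0.17, with 68.3% of the 385 positive against 46.8% of all IDs. This list comes from the same groups as the line on which replicate 1 scored -0.33, so its medians restate that position in terms of single IDs. The list and the calls at 24 h also use the same spread of each ID in the shared fit, so they are not independent. No list was drawn from control at 24 and 1 h, which would share the control libraries of 24 h. With only the propranolol 1 mg/L groups of 1 and 24 h in the fit, limma called 0 IDs between them. edgeR with all libraries called 253 higher and 429 lower at 24 h than at 1 h.

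Of the 243 IDs that rose over that time (1.27% of all), 14 were lower and 1 higher in propranolol 4 mg/L at 24 h. Their median log2 difference from control was -0.94 in replicate 1, -0.25 in replicate 2 and -0.13 in replicate 3, and 4 were called lower without replicate 1. Those 4 were 23.5% of the 17 lower calls without replicate 1, while 14 were 6.54% of the 214 lower calls with it. Over all IDs, 1.12% were lower with replicate 1 and 0.0887% without it.

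A second set of lists held the IDs called at 6 h under propranolol 4 mg/L, isoprenaline or the mixture. These comparisons share no library with the 24 h comparison, but all 3 share the control libraries of 6 h. In the shared fit they also use the same spread of each ID as the 24 h comparison, so calls at 6 and 24 h are not independent. Of the 736 IDs lower in propranolol 4 mg/L at 6 h (3.84% of all), 134 were lower at 24 h and 0 higher. They were 18.2% of the 6 h list and 62.6% of the 214 lower calls at 24 h, where 1.12% of all IDs were lower. The median log2 difference at 24 h over the 736 was -0.80 in replicate 1, -0.75 in replicate 2 and -0.42 in replicate 3. For the 291 IDs lower in isoprenaline at 6 h (1.52%), 101 were lower at 24 h and 0 higher, with medians of -1.18, -1.37 and -0.92. For the 271 lower in the mixture (1.41%), 106 were lower at 24 h and 0 higher, with medians of -1.28, -1.15 and -0.82. All 3 exposed libraries at 24 h thus lay below control over these lists, replicate 1 among them but not apart.

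Without replicate 1 of propranolol 4 mg/L at 24 h, 9 IDs of each of these lists were called lower, of the 17 lower calls (0.0887% of all IDs). The list medians were then -0.59, -1.13 and -0.98 for propranolol 4 mg/L, isoprenaline and the mixture. The lists themselves rest on single libraries and on the shared fit. With only the groups compared in the fit, limma called 0 IDs for propranolol 4 mg/L and 0 for the mixture at 6 h, but 1123 lower for isoprenaline. edgeR with all libraries called 267, 256 and 283 lower in propranolol 4 mg/L, isoprenaline and the mixture at 6 h. The list of propranolol 4 mg/L held 2 IDs without replicate 1 of that exposure at 6 h, and those of isoprenaline and the mixture held 8 and 29 without replicate 2 of the 6 h control. Of the 8 and 29, 8 and 24 were called lower at 24 h, and of the 2, none.

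The lists of IDs higher at 6 h were short. Of 18 in propranolol 4 mg/L (0.094%), 4 were higher at 24 h, where 0.491% of all IDs were higher. Of 31 in isoprenaline (0.162%) it was 9, and of 49 in the mixture (0.256%) it was 19. None of these IDs was lower at 24 h. Without replicate 1 of 24 h the counts were 3, 3 and 4, beside 0.047% of all IDs. The lists were unstable: with each of their own libraries left out in turn they held 0 (without replicate 1 of propranolol 4 mg/L at 6 h) to 57 IDs (without its replicate 2) for propranolol 4 mg/L. For isoprenaline they held 0 (without replicate 2 or 3 of the 6 h control) to 584 IDs (without control replicate 1), and for the mixture 2 (without control replicate 2) to 334 IDs (without control replicate 1).

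**Figure D4:**
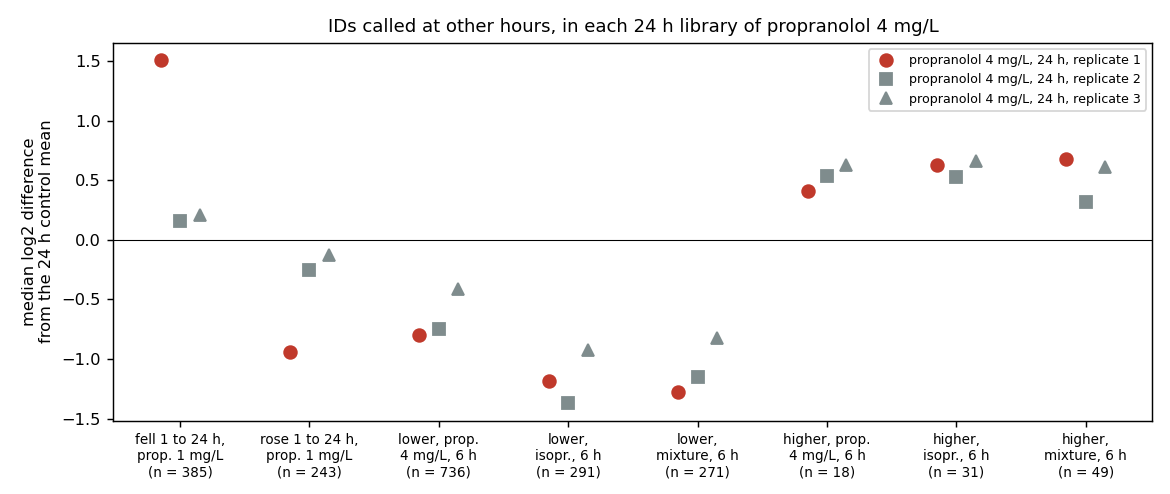
Median log2 difference from the 24 h control mean (vertical axis) over IDs called at other hours (horizontal axis, with the number of IDs), one point for each 24 h library of propranolol 4 mg/L. Replicate 1 (red) lies apart at 1.51 and -0.94 for IDs that fell or rose late in propranolol 1 mg/L, and beside the other replicates for the lists of 6 h.

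The 17 retained lower IDs divided into those also called at 6 h and those not. Against control at 6 h, 9 of the 17 were lower in each of propranolol 4 mg/L, isoprenaline and the mixture, against 3.84%, 1.52% and 1.41% of all IDs. In at least 1 of them 10 were lower, and 8 in all 3. Over the 10, the median log2 change was -2.46 at 24 h and -2.32, -2.31 and -2.25 at 6 h in propranolol 4 mg/L, isoprenaline and the mixture. At 1 h it was -0.998 in propranolol 4 mg/L, with none of them called (limma adjusted p of 0.484 and over); 0.0104% of all IDs were called at that hour. Both named IDs that fell belong to these 10.

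For the other 7 the median was -1.67 at 24 h, and -0.24, -0.14 and -0.01 at 6 h in the same 3 exposures, with changes in propranolol 4 mg/L at 6 h between -0.41 and 0.14. The difference between the effects at 24 and 6 h passed for none of them (lowest limma adjusted p 0.157). Across all IDs, limma called 0 with a different effect of propranolol 4 mg/L at 24 and 6 h (540 at an unadjusted p under 0.05), and edgeR called 0 (564). Without replicate 1 of 24 h, limma also called 0. Among the 8 retained higher IDs, 2, 3 and 4 were higher at 6 h in propranolol 4 mg/L, isoprenaline and the mixture, against 0.094%, 0.162% and 0.256% of all IDs.

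**Figure D5:**
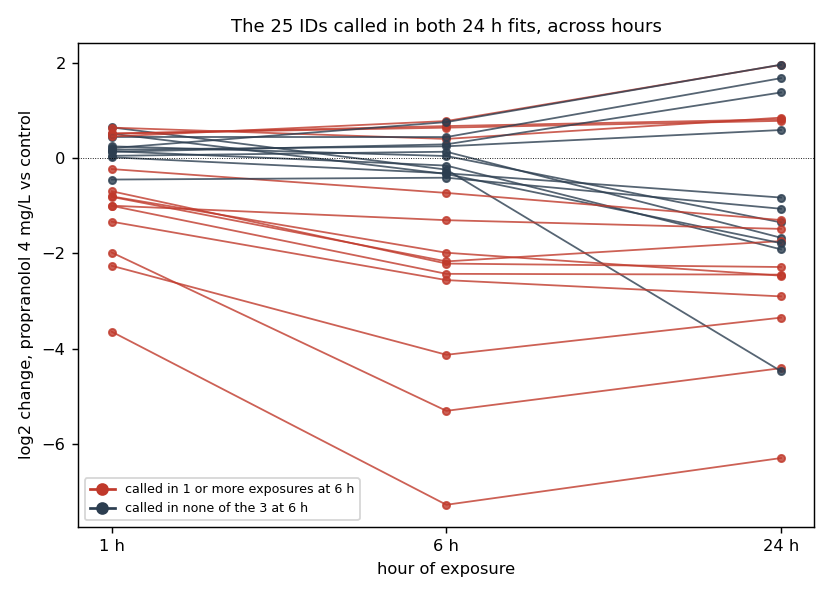
Log2 change of propranolol 4 mg/L against control (vertical axis) at 1, 6 and 24 h (horizontal axis, evenly spaced) for the 25 IDs called at 24 h with and without replicate 1; each line is an ID, red where it was called in propranolol 4 mg/L, isoprenaline or the mixture at 6 h. The colours are set by the calls at 6 h, so the positions at 6 h follow from the split; the lowest dark line lies at -4.47 at 24 h and the lowest red one at -6.30.

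One of these 7, Dapma7bEVm001285t1, had an effect at 24 h that differed from that at 1 h, alone among all IDs (0.00522%). It was at 3.63, 6.06 and 19.8 CPM in propranolol 4 mg/L at 24 h, against 164.3, 130.6 and 341 CPM in control. In propranolol 1 mg/L at 24 h it was at 117, 15.5 and 19.9 CPM, and group means of every exposure at 0 to 6 h lay between 2.21 and 15.7 CPM. The log2 change at 24 h was -4.47 (SE 0.530, limma adjusted p 1.37e-05), and -4.01 without replicate 1 (SE 0.571, limma adjusted p 0.000716). The effect at 24 h minus that at 1 h was -5.12 (SE 0.750, limma adjusted p 0.00213, edgeR 0.0327), and -4.66 without replicate 1 (limma adjusted p 0.0196, edgeR 0.229). With only the 4 groups compared in the limma fit it missed the threshold, at an adjusted p of 0.683.

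The lower dose was set beside the higher one at the same hour. Comparisons of the 2 doses with control share the control libraries, and those of 4 mg/L share the exposed ones, so their values are only set side by side. Propranolol 1 mg/L differed from control in 3 IDs (0.0157%), all lower, and edgeR called 0 (569 at an unadjusted p under 0.05 in limma, 554 in edgeR). Without replicate 1 of 4 mg/L in the shared fit, limma called 2 of these 3. Dapma7bEVm014185t1, one of these 3 and named after its values were seen, averaged 12.2, 0.635 and 3.15 CPM in control, 1 mg/L and 4 mg/L. It changed by -3.01 at 1 mg/L (limma adjusted p 0.044). At 4 mg/L it was at 6.57, 1.05 and 1.83 CPM, replicate 1 being the highest, and its log2 difference from control was -1.84 (limma adjusted p 0.0755), or -2.39 without replicate 1 (limma adjusted p 0.0998). Of the others, Dapma7bEVm008283t1 averaged 5.16, 0.285 and 1.20 CPM and Dapma7bEVm018780t1 1.43, 0.088 and 0.284 CPM at the same 3 doses. At 4 mg/L, Dapma7bEVm018780t1 was called with all libraries (-0.89, limma adjusted p 0.0244) but not without replicate 1 (-0.82, limma adjusted p 0.183). Dapma7bEVm008283t1 differed by -1.50 (limma adjusted p 0.0507), and by -1.72 without replicate 1 (limma adjusted p 0.12). None of the 3 was among the retained IDs.

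Between the doses, 5 IDs differed (0.0261%), and all 5 were retained IDs. Dapma7bEVm023888t1 and Dapma7bEVm015503t1 were higher at 4 mg/L than at 1 mg/L by 1.70 and 1.65 on the log2 scale (SE 0.225 and 0.294), with limma adjusted p of 0.000279 and 0.0234. In the libraries of 1 mg/L they were at 12.5, 15.4 and 16.1 CPM and at 12.9, 26.9 and 19.1 CPM. The other 3 were named after their values were seen. Dapma7bEVm015119t1 was at 20.5, 13.0 and 11.8 CPM at 4 mg/L, against 4.66, 6.72 and 6.62 CPM at 1 mg/L, a log2 difference of 1.18 (limma adjusted p 0.0369). Dapma7bEVm005913t1 was at 34.4, 57.2 and 67.6 CPM at 4 mg/L, against 389.1, 120.9 and 238.4 CPM at 1 mg/L, a difference of -2.11 (limma adjusted p 0.00312).

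Dapma7bEVm013966t1 was at 0.0498, 0.137 and 0.213 CPM at 4 mg/L, against 1.42, 0.73 and 0.762 CPM at 1 mg/L, a difference of -0.78 (limma adjusted p 0.0419). Without replicate 1 of 4 mg/L, Dapma7bEVm023888t1 was the call between doses that stayed, at 1.46 (SE 0.236, limma adjusted p 0.014, edgeR 0.0373). The differences of the other 4 were then 1.42 for Dapma7bEVm015503t1, 0.95 for Dapma7bEVm015119t1, -1.83 for Dapma7bEVm005913t1 and -0.73 for Dapma7bEVm013966t1, with limma adjusted p of 0.106 to 0.253. edgeR called 29 IDs between the doses with all libraries (0.151%, 14 higher and 15 lower) and 1 without replicate 1. With only the 2 dose groups in the fit limma called 0 (442 at an unadjusted p under 0.05).

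The libraries of 1 mg/L differed among themselves at the retained IDs. Replicate 2 of 1 mg/L lay below every control library at all 17 retained lower IDs and above every control library at all 8 higher ones, whereas replicate 1 did so at 4 and 4, and replicate 3 at 10 and 7. Over all IDs, replicates 1, 2 and 3 of 1 mg/L lay below every control library at 27.9%, 32.8% and 21.7%, and above at 18.2%, 25.5% and 15.1%. The 4 of 17 lower IDs in replicate 1 are thus near its share over all IDs. Dapma7bEVm016578t1 was at 163.3, 1.98 and 225.6 CPM in replicates 1 to 3 of 1 mg/L, and Dapma7bEVm027021t1 at 29.9, 0.782 and 47.0 CPM. For both, replicate 2 lay closer to the libraries of 4 mg/L than to the other libraries of its own dose. By correlation over all IDs its nearest group mean was that of propranolol 4 mg/L at 24 h (0.955). Replicate 2 of the control at 24 h correlated with that mean at 0.953, and with its own group at 0.898. The likeness by correlation was thus shared with a control library and not particular to the exposed ones. Without replicate 2 of 1 mg/L the count between doses was 68 in place of 5.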

How the data were processed

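The deposited table holds CPM for 45 libraries. Per the submitters' processing notes, edgeR, HTSeq, Bowtie2 2.1.0 and Trim Galore 0.3.2 were used; the genome build is not given in the sources used here. All 862155 deposited CPM values were whole multiples of 1 read within 0.01 read, so reads were recovered for 100% of them (13.5 to 43.7 M per library). Intervals at the 95% level are exact and cover counting error only.

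The main test was limma 3.58.1 (trend, robust, R 4.3.3) on log2(CPM + 1), with 16 group means in a shared fit and Benjamini-Hochberg adjustment over 19159 IDs. All passed the filter of 1 CPM in 3 libraries. Fold changes on this scale understate the change of low IDs. edgeR 4.0.16 (quasi-likelihood) on recovered reads, pseudocount 0.25, other filters and scaling, fewer groups, a replicate block, library quality weights and leaving out libraries were alternatives.

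IDs named are those called with and without replicate 1, not overlapping and with a mean of at least 5 CPM, ranked by change without replicate 1. They were the first 2 of 8 higher and 2 of 13 lower IDs, since no ID matched the 28335 named reference genes. Planned gene lists and cell type markers were void for the same reason. The comparison, lists and tests were chosen with earlier results of these data known. No label states that the replicates are separate cultures. The p-values therefore reflect the variation among these libraries alone, which may be technical.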

Additional observations from a re-analysis of the deposited data

Results flagged for a closer look

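Dapma7bEVm001285t1 was singled out because its response to propranolol 4 mg/L at 24 h differed from its response at 1 h, by -5.12 on the log2 scale (limma adjusted p 0.00213). At 1 h its log2 difference from control was 0.65 (SE 0.530, limma adjusted p 1).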

How the results depend on the processing

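For propranolol 4 mg/L against control at 24 h the 308 calls became 6 when just the groups compared were fitted, 763 with the replicate block, 578 with edgeR, and 26 to 605 with 1 library left out. With replicate 1 also left out they were 1 (only the compared groups) and 23 (edgeR). The 26 calls without replicate 1 became 17 with a pseudocount of 0.25, 1 with only the compared groups, 16 with the replicate block, 14 with median log-ratio scaling, 64 with library quality weights, and 4 to 36 with another library left out. For 4 against 1 mg/L, the 5 calls became 9, 0, 26, 2826 and 29 with pseudocount 0.25, only the compared groups, the replicate block, weights and edgeR, and 1 to 68 with a library left out. For 1 mg/L against control, the 3 calls became 0 with pseudocount 0.25, a mean of 5 CPM, only the compared groups, scaling or edgeR, 1 with the replicate block, 754 with weights, and 0 to 5 with a library left out. The weights did not converge. The 1 ID that differed between 24 and 1 h became 0 with only the compared groups, 7 with weights, and 1 to 2 with a library left out; between 24 and 6 h, 0 became 0 to 5 (5 without replicate 2 at 6 h).

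Members called at 24 h were recounted with a library of a list's own groups left out, or without replicate 1 of propranolol 4 mg/L at 24 h. No other library of the 24 h comparison was left out for these counts. The ranges were 3 to 16 and 3 to 43 for IDs that rose or fell late in propranolol 1 mg/L. For IDs higher or lower at 6 h they were 0 to 14 and 0 to 147 in propranolol 4 mg/L. In isoprenaline they were 0 to 18 and 8 to 121, and in the mixture 1 to 23 and 9 to 112. Redrawing the lists was added after seeing the data. With scaling, the higher lists held 91, 62 and 98 IDs in propranolol 4 mg/L, isoprenaline and the mixture. Of these, 28, 14 and 33 were called at 24 h, which is 30.8%, 22.6% and 33.7%. Without scaling the shares were 22.2%, 29.0% and 38.8%. Higher calls at 24 h over all IDs were 154 with scaling and 94 without it. Of the 100 most abundant IDs 7 were called (1.61% over all IDs), and 0 without replicate 1 of propranolol 4 mg/L (0.136%).

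Replicate numbers do not pair these libraries: same-numbered libraries of 4 mg/L and control deviated with r of 0.189, 0.726 and -0.270. The 4 named IDs kept their direction in all 16 alternatives each, and passed in all 6 fits with a library left out. Passing without replicate 1 was a condition for naming them. Of the other 10 alternatives, Dapma7bEVm016578t1 passed 10 and Dapma7bEVm027021t1 9 (highest limma adjusted p 0.0856). Dapma7bEVm015503t1 and Dapma7bEVm023888t1 passed 8 each (highest limma adjusted p 0.254). The mean hour score of propranolol 4 mg/L at 24 h was 0.644 (SD 0.845), and 1.13 (SD 0.110) without replicate 1. The median SE of a log2 difference, 0.279, limits what these 6 libraries can show. For the counts that moved, the cause was not tested.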
